A study of Mus musculus with 7 samples.

Results

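The 10 genes described here encode the calcium-activated phosphatase calcineurin (Ppp3ca, Ppp3cb and Ppp3r1), the NFAT transcription factors that it acts on (Nfatc1, Nfatc2, Nfatc3 and Nfatc4) and the regulators of calcineurin (Rcan1, Rcan2 and Rcan3). They were taken as every probe set whose only gene in the array annotation is one of the 10, which gave 33 of the 45037 probe sets on the array and 10 of the 18193 genes. All 33 were kept, with no filter on dim values. A further probe set that names Ppp3r1 together with a second gene was not used. Expression was measured by Affymetrix Mouse Genome 430 arrays, 1 heart each, in whole hearts of 7 mdx mice at 7 months of age. In 4 mdx HRTΔIKKβ mice, floxed IKKβ, the kinase that activates classical NF-κB, was deleted by Cre under the Myh6 promoter, which is active in cardiomyocytes and not in the other cells of the heart. The 3 mdx IKKβf/f mice were littermates that carried the same floxed IKKβ without Cre. Both groups were mdx, that is, without dystrophin as in Duchenne muscular dystrophy, from a colony that descends from C57BL/10 ScSn mice. The comparison asked which transcripts differ when NF-κB signalling is lost from dystrophic cardiomyocytes.

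Calcineurin is a serine/threonine phosphatase made of a catalytic A subunit (Ppp3ca or Ppp3cb in the heart) and a calcium-binding B subunit (Ppp3r1), and is switched on by calcium-loaded calmodulin. It removes phosphates from NFAT factors, which then enter the nucleus and bind DNA, often with partners such as GATA and MEF2 factors, and in the heart this route is known for its part in pathological hypertrophy. Rcan proteins bind calcineurin and hold it back, and Rcan1 has an internal start site that NFAT itself switches on, so that Rcan1 RNA is widely used as a readout of calcineurin activity.

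The NFAT core, GGAAA or its reverse complement TTTCC on either strand, was looked for in the 250 bases before each transcript start of the members, taken from RefSeq (GRCm38.p6). Windows were held for 8 of the 10 genes (13 windows; Ppp3ca and Nfatc1 were not among them). The core was present in 8 of the 13 member windows, against 55.6% of 32851 windows of the same length before mouse genes, so that a match is common. At least 3 matches were present in 4 member windows (1 each of Nfatc2, Nfatc4, Ppp3cb and Rcan1), against 6.39% of all windows. The NF-κB consensus was present in 0 of the 13, and in 3.9% of all windows. At so low a share, absence from 13 windows says little, and sites outside the 250 bases were not looked for. In public binding data from macrophages, the paper found NF-κB peaks on Rcan1. Rcan1 is shown because its RNA set it apart from the other members in the arrays. Its 2 starts differ in the number of NFAT cores, which is not particular to it. The other members with several windows also differed between starts: Nfatc2 (1 and 3), Nfatc3 (1 and 0) and Rcan2 (2, 0 and 0). The 2 Rcan1 starts lie 66091 bases apart on the minus strand of chromosome 16. The window of the downstream start holds 3 cores, shown in capitals, and that of the upstream start holds 0.
Rcan1 downstream start, chr16:92400079-92400328, minus strand: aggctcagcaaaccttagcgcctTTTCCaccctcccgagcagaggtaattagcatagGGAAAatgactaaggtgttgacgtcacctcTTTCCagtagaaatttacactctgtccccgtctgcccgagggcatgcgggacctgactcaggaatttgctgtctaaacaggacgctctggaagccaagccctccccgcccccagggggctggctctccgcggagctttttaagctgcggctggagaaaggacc
Rcan1 upstream start, chr16:92466170-92466419, minus strand: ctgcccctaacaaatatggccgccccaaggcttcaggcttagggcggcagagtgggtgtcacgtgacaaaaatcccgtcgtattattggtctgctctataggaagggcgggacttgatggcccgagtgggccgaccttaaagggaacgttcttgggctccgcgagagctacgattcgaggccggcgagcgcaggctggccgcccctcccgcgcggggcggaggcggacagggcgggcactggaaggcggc
A match of these letters is not a binding site, and the arrays measured no binding. Both Rcan1 probe sets carry the array maker's mark for probes shared by several transcripts of 1 gene, so their values do not tell the starts apart.

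Every value below is a log2 RMA value, that is, background-corrected and quantile-normalized by the authors. Levels are compared between hearts within a probe set and never between probe sets. Differences are given as mdx HRTΔIKKβ minus mdx IKKβf/f, ± the standard error from limma fitted over all probe sets. The arrays were alike in level, with medians from 6.73 to 6.75 and a lowest pairwise correlation of 0.99. All 8 cardiomyocyte markers were bright in every heart (13.19 to 15.09). Single hearts stood apart in other markers. The mean level of 10 skeletal muscle markers, centred on the 7 hearts, was 3.69 in mdx IKKβf/f replicate 1 and between -1.35 and 0.82 in the other 6 hearts. Adipocyte and airway markers were highest in mdx HRTΔIKKβ replicate 2 (2.56 and 3.18). Neutrophil markers were high in that heart (3.19) and in mdx IKKβf/f replicate 1 (2.90), and lay between -1.55 and -0.80 in the other 5.

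Rcan1 was the only member that differed by 1.5-fold or more, and it was far higher in 2 of the 4 mdx HRTΔIKKβ hearts than in the other 2. The subunits of calcineurin, the NFAT factors, Rcan2 and Rcan3 differed by at most 0.25 on the log2 scale in either direction. No member probe set passed an adjusted p of 0.05 (limma, adjusted p from 0.796 to 0.9997), and 0.0% of all probe sets did, with a smallest adjusted p of 0.336. At an unadjusted p of 0.05, 3 of the 33 were higher in mdx HRTΔIKKβ hearts (both probe sets of Rcan1 and 1 of Nfatc1), against 3.31% of all probe sets, and 1 was lower (Nfatc2), against 2.76%. Groups did not overlap in 3 member probe sets that were higher and 3 that were lower, against 3.01% and 2.44% of all. Only the 2 Rcan1 probe sets were at least 1.5-fold higher, against 0.79% of all. The median difference of the 33 was 0.02, against -0.01 over all probe sets, with 22 higher and 11 lower means. Counted by the brightest probe set of each gene, 1 of 10 was higher (Rcan1) and 0 were lower at an unadjusted p of 0.05, against 3.25% and 2.95% of all genes.

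**Figure D1:**
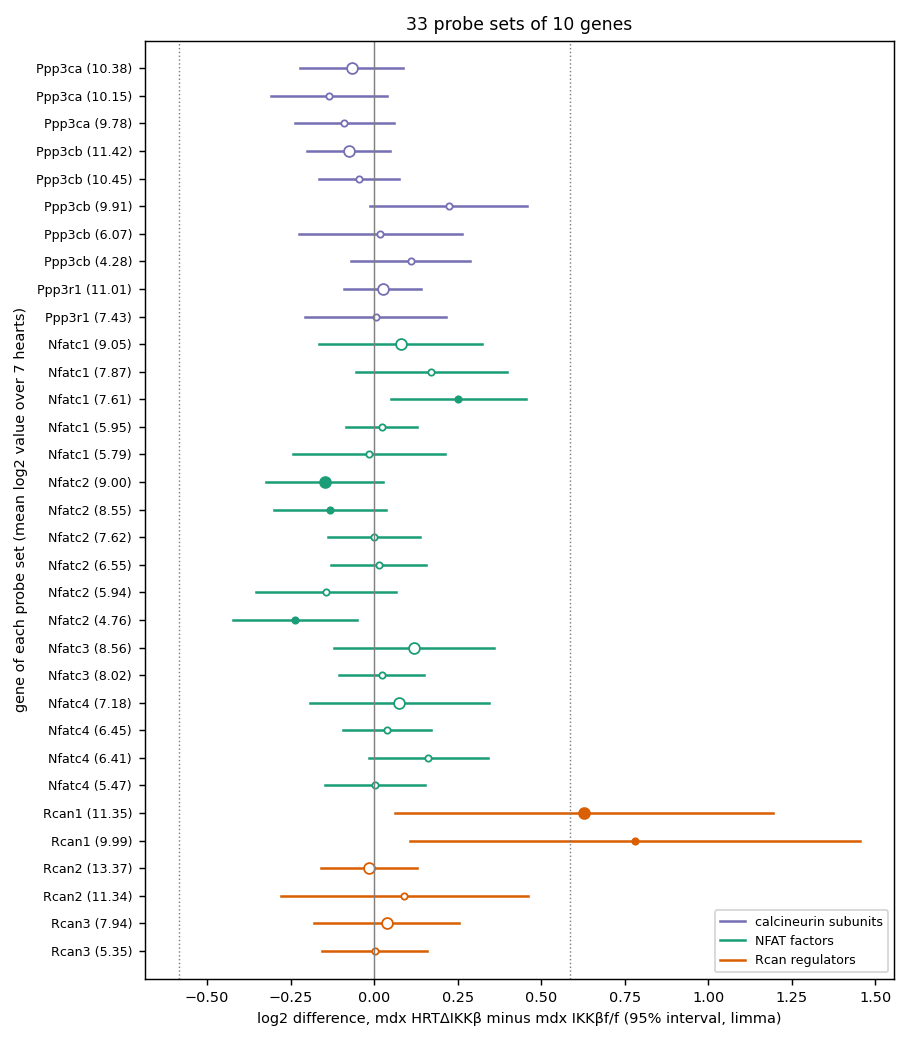
Difference in log2 RMA value, mdx HRTΔIKKβ minus mdx IKKβf/f, for the 33 probe sets with the 95% interval of the limma fit. Each row is a probe set with its mean over the 7 hearts, larger points are the brightest probe set of a gene, filled points have no overlap between groups, and dotted lines mark 1.5-fold, which only the 2 Rcan1 probe sets pass.

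The first group was calcineurin itself. Ppp3ca, a catalytic subunit, had values of 10.21, 10.37, 10.40 and 10.44 in mdx HRTΔIKKβ hearts and of 10.42, 10.41 and 10.43 in mdx IKKβf/f hearts by its brightest probe set (1438478_a_at). The difference was -0.07 ± 0.07 (limma, adjusted p = 0.850), and the groups overlapped because replicate 4 was the highest of the 7 hearts. The other 2 probe sets of Ppp3ca, 1426401_at and 1452056_s_at, differed by -0.14 ± 0.07 and -0.09 ± 0.06. In all 3 the lowest heart was mdx HRTΔIKKβ replicate 1, and without it the brightest differed by -0.02. The widest of their 95% intervals (1426401_at) ran from -0.31 to 0.04.

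Ppp3cb, the other catalytic subunit, was read by 5 probe sets that did not point one way. The brightest (1428473_at) had 11.32, 11.40, 11.47 and 11.38 in mdx HRTΔIKKβ hearts and 11.46, 11.49 and 11.46 in mdx IKKβf/f hearts (difference -0.08 ± 0.05). By contrast, 1433835_at had 9.98, 10.21, 9.91 and 9.90 in mdx HRTΔIKKβ hearts against 9.69, 9.95 and 9.69 in mdx IKKβf/f hearts, and differed by 0.22 ± 0.10 (limma, adjusted p = 0.796). The groups overlapped there, as mdx IKKβf/f replicate 2 lay above mdx HRTΔIKKβ replicates 3 and 4. The remaining 3 probe sets differed by -0.04, 0.02 and 0.11. The sources used here do not say which transcripts each probe set reads.

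Ppp3r1, the regulatory B subunit that both catalytic subunits need, was read by 2 probe sets. Its brightest probe set (1433591_at) lay at 10.99, 11.06, 11.05 and 11.01 in mdx HRTΔIKKβ hearts and at 11.01, 10.95 and 11.04 in mdx IKKβf/f hearts. The difference was 0.03 ± 0.05 with a 95% interval of -0.09 to 0.14, so that a small difference either way is not detectable with these arrays. The second probe set (1421786_at) differed by 0.00 ± 0.09. It was more variable, from 7.21 to 7.59 within mdx IKKβf/f hearts, and differed by -0.10 without mdx IKKβf/f replicate 2. Of the 10 probe sets of calcineurin subunits, 5 had a higher and 5 a lower mean, and none reached an unadjusted p of 0.05 or separated the groups.

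**Figure D2:**
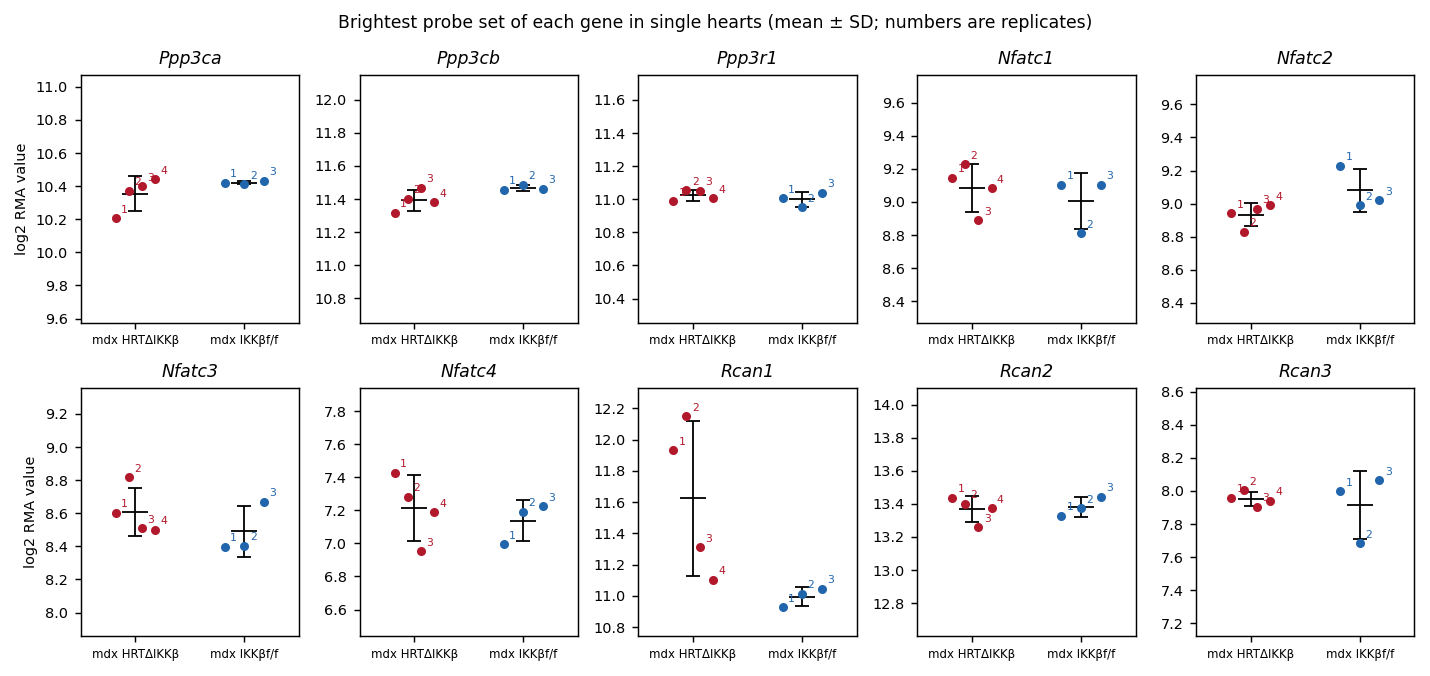
Log2 RMA value of the brightest probe set of each of the 10 genes in single hearts, with 4 mdx HRTΔIKKβ hearts in red at left and 3 mdx IKKβf/f hearts in blue at right, and the mean ± SD as bars. The groups are separate in Rcan1 (higher) and Nfatc2 (lower), and the spread of Rcan1 in mdx HRTΔIKKβ hearts (SD 0.50) is the widest of the 10.

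The NFAT factors are the substrates that carry the calcineurin signal to the nucleus, and 4 of the family are regulated by it. Of their 17 probe sets, 12 had a higher and 5 a lower mean in mdx HRTΔIKKβ hearts, with a median of 0.02. Nfatc1, known for its role in the endocardium and heart valves, had 9.15, 9.23, 8.89 and 9.08 in mdx HRTΔIKKβ hearts and 9.10, 8.81 and 9.10 in mdx IKKβf/f hearts by its brightest probe set (1428479_at), which overlapped and differed by 0.08 ± 0.11. The sign of that difference rests on mdx IKKβf/f replicate 2, without which it was -0.02. A dimmer probe set of Nfatc1 (1425761_a_at) did separate the groups. It had 7.73, 7.89, 7.65 and 7.63 in mdx HRTΔIKKβ hearts and 7.39, 7.40 and 7.62 in mdx IKKβf/f hearts, which differed by 0.25 ± 0.09 (limma, adjusted p = 0.796). The gap between the nearest hearts of the groups was small, since mdx HRTΔIKKβ replicate 4 and mdx IKKβf/f replicate 3 were at 7.63 and 7.62, and the unadjusted p passed 0.05 in 5 of 7 runs with 1 heart left out. The other 3 probe sets of Nfatc1 differed by 0.17, 0.02 and -0.02. Markers of the endothelium and endocardium, the cells where Nfatc1 is best known, had centred mean levels from -0.06 to 0.18 in mdx HRTΔIKKβ hearts and from -0.13 to 0.06 in mdx IKKβf/f hearts. Of the 8 markers, 4 had a higher and 4 a lower mean. Npr3 of the endocardium (0.58) and Pecam1 (0.30) were higher without overlap. The 4 with a lower mean were Egfl7 (-0.22), Kdr (-0.16), Tek (-0.03) and Cdh5 (-0.03), whose groups overlapped. The part of these cells in the Nfatc1 values was not tested.

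Nfatc2, first known from T cells, was the only member with probe sets that were lower without overlap, 3 of its 6. The brightest (1426032_at) had 8.94, 8.83, 8.97 and 8.99 in mdx HRTΔIKKβ hearts and 9.23, 8.99 and 9.02 in mdx IKKβf/f hearts. The difference was -0.15 ± 0.08 (limma, adjusted p = 0.796, exact permutation p = 0.0571), with all mdx HRTΔIKKβ hearts below all mdx IKKβf/f hearts although the nearest hearts of the groups were both at 8.99. It shrank to -0.07 without mdx IKKβf/f replicate 1, the heart with the highest skeletal muscle and the second highest neutrophil markers. A second probe set (1439205_at) had 8.57, 8.36, 8.46 and 8.57 in mdx HRTΔIKKβ hearts against 8.57, 8.57 and 8.72 in mdx IKKβf/f hearts, and differed by -0.13 ± 0.07. The groups were separated only by 8.566 against 8.572, and the difference was -0.08 without mdx IKKβf/f replicate 3. The third without overlap (1425990_a_at) was dim, with 4.72, 4.69, 4.51 and 4.71 in mdx HRTΔIKKβ hearts and 4.99, 4.93 and 4.76 in mdx IKKβf/f hearts (difference -0.24 ± 0.08). The remaining 3 differed by 0.00, 0.01 and -0.14. All 3 that separated the groups thus had the same direction, and none passed adjustment (limma, adjusted p = 0.796 for each). The lymphocyte markers went the opposite way to Nfatc2, with all 10 measured markers higher on average in mdx HRTΔIKKβ hearts and a centred mean level of 0.10 to 0.99 in these against -0.90 to -0.24 in mdx IKKβf/f hearts. Among them, Ighm and Jchain of antibody-producing cells differed by 3.25 and 3.02, and the 6 measured T cell markers (Cd3e, Cd3d, Cd3g, Cd2, Cd4 and Cd8a) by 0.05 (Cd3e) to 0.86 (Cd3g, without overlap). The T cell differences rested largely on mdx HRTΔIKKβ replicate 1. Cd3g was 7.30 there and 5.39 to 5.51 in the other mdx HRTΔIKKβ hearts, and Cd8a was 7.89 against 6.40 to 6.56. Cd3e, Cd3d and Cd4 were also highest in that heart, and Cd2 in replicate 2 (6.55). The part of these cells in the Nfatc2 values was not tested. In whole hearts, fewer cells of a type and less RNA per cell cannot be told apart.

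Nfatc3 and Nfatc4, the family members most often tied to hypertrophy in mouse hearts, differed by less than the spread between hearts in their brightest probe sets. Nfatc3 (1419976_s_at) had 8.60, 8.82, 8.51 and 8.50 in mdx HRTΔIKKβ hearts and 8.40, 8.40 and 8.67 in mdx IKKβf/f hearts, and differed by 0.12 ± 0.10. Its second probe set differed by 0.02. Nfatc4 (1423380_s_at) had 7.43, 7.28, 6.95 and 7.19 in mdx HRTΔIKKβ hearts and 6.995, 7.19 and 7.22 in mdx IKKβf/f hearts, and differed by 0.08 ± 0.12. The lowest of the 7 hearts for Nfatc4 was thus an mdx HRTΔIKKβ heart (replicate 3), as was the highest (replicate 1). The other 3 probe sets of Nfatc4 differed by 0.16, 0.04 and 0.00.

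Rcan1 was the member with the largest difference. The study picked this gene as higher on these same arrays, so its direction here is not independent evidence. The paper also reported higher Rcan1 RNA by qPCR, and more of the activating histone mark H3K27ac at the gene, in mdx HRTΔIKKβ hearts. It further reported less of the repressor proteins CTCF, SIN3A and HDAC1 at the gene in these hearts. Those measurements were not examined here. The brightest probe set (1416600_a_at) had 11.93, 12.15, 11.31 and 11.10 in mdx HRTΔIKKβ hearts and 10.93, 11.01 and 11.04 in mdx IKKβf/f hearts. The second (1416601_a_at) had 10.67, 10.96, 9.90 and 9.75 in mdx HRTΔIKKβ hearts and 9.45, 9.70 and 9.48 in mdx IKKβf/f hearts. In both, every mdx HRTΔIKKβ heart lay above every mdx IKKβf/f heart, and replicates 2 and 1 lay far above replicates 3 and 4, which were close to the mdx IKKβf/f hearts. The probe sets followed each other over the hearts (Pearson r = 0.99, 7 hearts, a description).

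The brightest probe set averaged 11.62 ± 0.50 in mdx HRTΔIKKβ hearts (SD, n = 4) and 10.995 ± 0.06 in mdx IKKβf/f hearts (SD, n = 3), which differed by 0.63 ± 0.24, or 1.55-fold with a 95% interval of 1.04 to 2.29. The second averaged 10.32 ± 0.59 in mdx HRTΔIKKβ hearts and 9.54 ± 0.14 in mdx IKKβf/f hearts, and differed by 0.78 ± 0.29, or 1.72-fold. Neither passed adjustment (limma, adjusted p = 0.796 for each), and both were past an unadjusted p of 0.05. The exact permutation test of the brightest gave a two-sided p of 0.0571, which is the smallest that 4 against 3 hearts can give. The spread within mdx HRTΔIKKβ hearts was itself large, above that of 98.0% of all probe sets for 1416600_a_at. Without replicate 2 the difference of the brightest was 0.45, without replicate 1 it was 0.53, and without replicate 4 it was 0.80. The brightest missed an unadjusted p of 0.05 in 5 of the 7 runs with 1 heart left out.

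**Figure D3:**
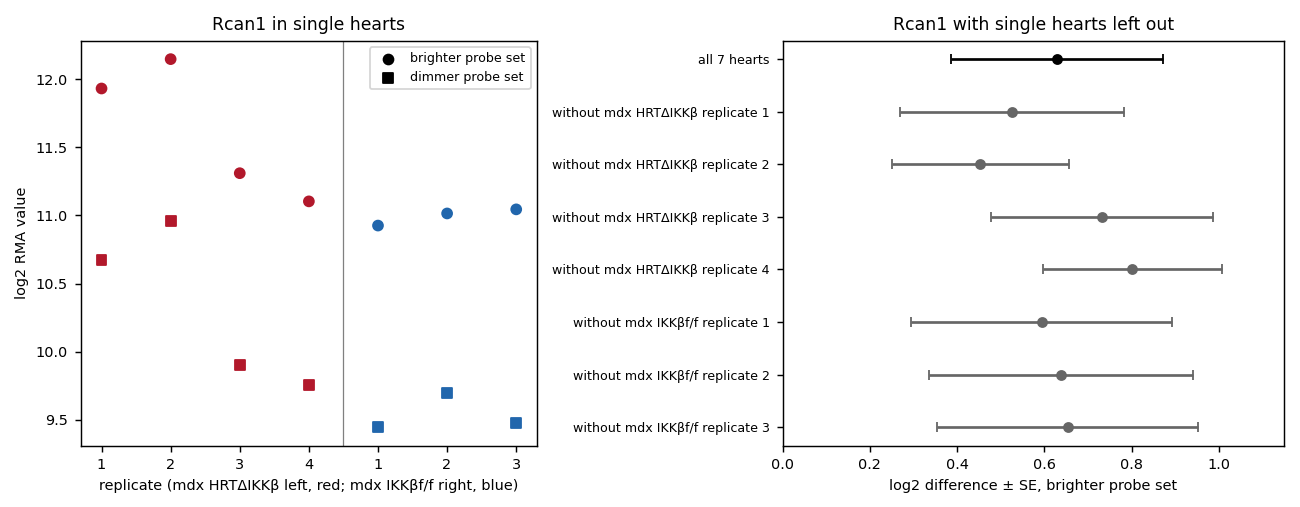
Left, log2 RMA values of both Rcan1 probe sets in single hearts, mdx HRTΔIKKβ in red and mdx IKKβf/f in blue. Right, the difference ± SE of the brighter probe set over all 7 hearts (0.63) and with each heart left out in turn, from 0.45 to 0.80.

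Rcan2 and Rcan3, which inhibit calcineurin in the same way, showed no separation of the groups. Rcan2 (1421425_a_at) had 13.44, 13.40, 13.26 and 13.37 in mdx HRTΔIKKβ hearts and 13.33, 13.37 and 13.44 in mdx IKKβf/f hearts, and differed by -0.01 ± 0.06 with a 95% interval of -0.16 to 0.13. Its second probe set (1450243_a_at) differed by 0.09 ± 0.16, where mdx IKKβf/f replicate 3 was low (10.88), and by -0.11 without that heart. Rcan3 (1434027_at) had 7.96, 8.005, 7.90 and 7.94 in mdx HRTΔIKKβ hearts and 7.9998, 7.68 and 8.06 in mdx IKKβf/f hearts, and differed by 0.04 ± 0.09, and its dim second probe set differed by 0.00. The intervals of the brightest Rcan2 and Rcan3 probe sets lay below the estimate for Rcan1. They overlapped the interval of Rcan1, which began at 0.06, since they ran to 0.13 (Rcan2) and 0.25 (Rcan3). The difference between the genes was not itself tested.

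Across the 7 hearts, some member probe sets went along with Rcan1 and others against it, which is given as a description since all points share the same arrays. Pearson r with the brightest Rcan1 probe set was 0.87 for the Nfatc1 probe set 1425761_a_at, 0.83 for the Ppp3cb probe set 1433835_at, -0.91 for the Ppp3ca probe set 1426401_at and -0.76 for the Nfatc2 probe set 1426032_at. All 4 are among the member probe sets with the larger differences between groups, so part of each r is that difference. The other Ppp3cb probe sets went against Rcan1, with r from -0.66 (1428473_at, the brightest) to -0.13 (1428474_at). The genes most like Rcan1, out of 9095 with a mean above the median of all genes, were Copg1 (r = 0.99), Nop2 (r = 0.99), Hmgn1 (r = 0.99), Sf3b3 (r = 0.98) and Ppp2ca (r = 0.98). They encode a coatomer subunit, a nucleolar RNA methyltransferase, a nucleosome-binding protein, a splicing factor and the catalytic subunit of another phosphatase. Their own differences were far smaller than that of Rcan1, from 0.11 (Sf3b3) to 0.18 (Hmgn1).

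Marker levels are given beside Rcan1. The lymphocyte score ran in the same order over the mdx HRTΔIKKβ hearts as Rcan1. It was 0.40, 0.99, 0.31 and 0.10 in replicates 1 to 4, against -0.24, -0.67 and -0.90 in mdx IKKβf/f hearts. No single lymphocyte marker had that order, which arose from averaging markers that disagreed. Ighm had 10.68, 13.55, 12.49 and 11.73 in mdx HRTΔIKKβ replicates 1 to 4. Jchain and Ms4a1 were likewise lowest in replicate 1 of these. Cd3g had 7.30, 5.51, 5.39 and 5.46, highest in replicate 1. The macrophage score was 0.27, 0.16, -0.14 and 0.21 in mdx HRTΔIKKβ hearts and -0.08, -0.31 and -0.12 in mdx IKKβf/f hearts, with 8 of 8 markers higher on average in mdx HRTΔIKKβ hearts and the groups overlapping. The adipocyte, neutrophil and skeletal muscle scores also had the order of Rcan1 within mdx HRTΔIKKβ hearts. The adipocyte score was 0.27, 2.56, 0.04 and -0.31 in these, and 0.32, -1.67 and -1.21 in mdx IKKβf/f hearts. The neutrophil score was -0.80, 3.19, -0.996 and -1.55 in mdx HRTΔIKKβ hearts and 2.90, -1.54 and -1.21 in mdx IKKβf/f hearts. The skeletal muscle score was -1.17, 0.29, -1.22 and -1.35 in mdx HRTΔIKKβ hearts and 3.69, -1.07 and 0.82 in mdx IKKβf/f hearts. Of these 4 scores, the lymphocyte score was the one whose groups did not overlap. The cardiomyocyte score stayed between -0.02 and 0.04 in all hearts. The part of these cells in the Rcan1 values was not tested.

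**Figure D4:**
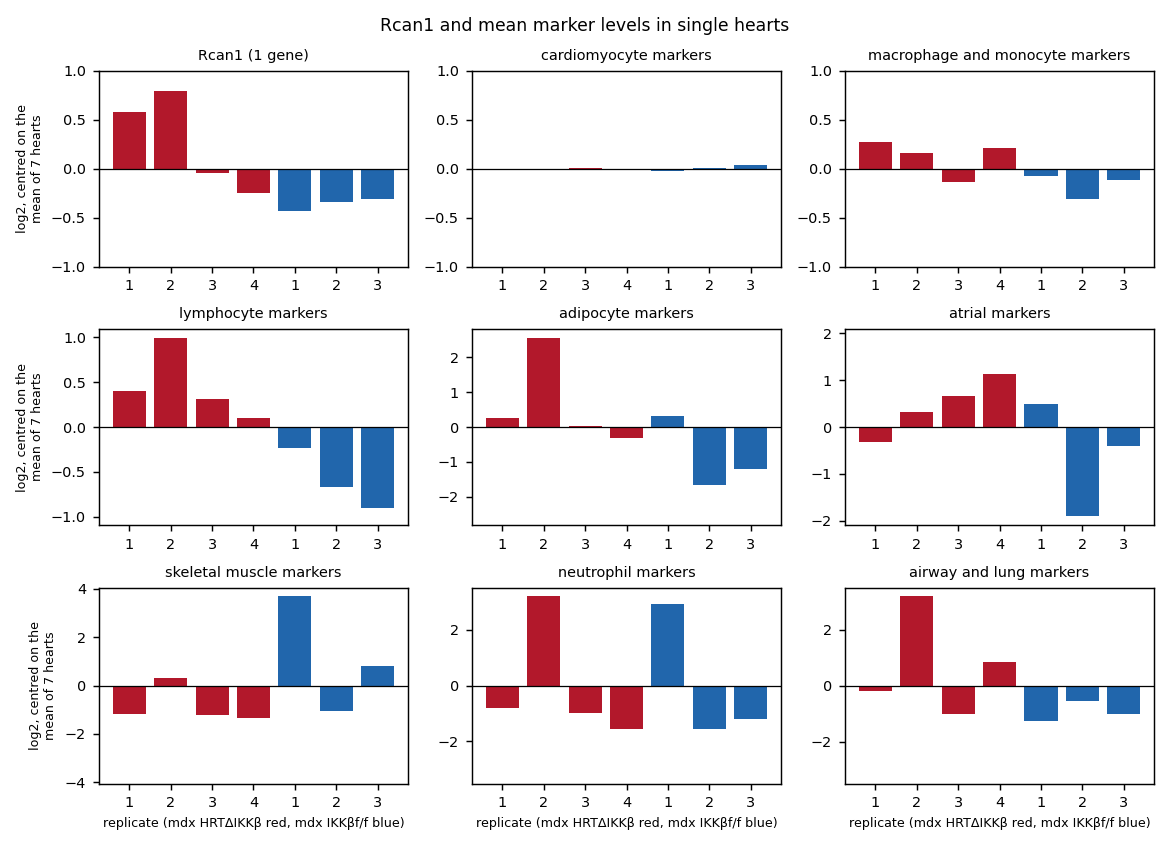
Brightest Rcan1 probe set and the mean log2 level of marker lists in single hearts, each centred on the mean of the 7 hearts, with mdx HRTΔIKKβ hearts in red and mdx IKKβf/f hearts in blue. Rcan1 and the mean level of lymphocyte markers are highest in mdx HRTΔIKKβ replicate 2, skeletal muscle markers in mdx IKKβf/f replicate 1, and cardiomyocyte markers are level. Vertical scales differ between panels.

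The rest of the pathway was read from 3 lists. Of 56 genes, 50 had a probe set of their own, and by the brightest of each, an unadjusted p of 0.05 was reached by 2 with a higher and 2 with a lower mean, against the 3.25% and 2.95% of all genes, with 0 past adjustment (limma) and a median difference of -0.01. Of 16 measured partners and regulators of calcineurin, 5 had a higher and 11 a lower mean (median -0.05), and only Akap5 reached an unadjusted p of 0.05. Akap5 anchors calcineurin and protein kinase A at the membrane. Its brightest probe set (1431717_at) had 5.67, 5.84, 5.64 and 5.67 in mdx HRTΔIKKβ hearts and 5.90, 5.98 and 5.84 in mdx IKKβf/f hearts, and differed by -0.20 ± 0.07. Its other 2 probe sets, both dimmer, separated the groups, at -0.41 and -0.15, but all 3 Akap5 probe sets lay below the median brightness of 6.74. Myoz1, a sarcomere protein of fast muscle that binds calcineurin, differed by -1.29 ± 0.68, with a value of 10.90 in mdx IKKβf/f replicate 1, and by -0.29 without that heart. Homer3, a scaffold protein, differed by -0.11 ± 0.08 and Cib1, which holds calcineurin at the sarcolemma, by 0.10 ± 0.07.

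Of 20 NFAT kinases and nuclear partners, 10 had a higher and 10 a lower mean (median 0.02). Mef2c, a muscle transcription factor that works with NFAT, was lower on average in all 5 of its probe sets. Its brightest (1424852_at) had 10.58, 10.63, 10.39 and 10.56 in mdx HRTΔIKKβ hearts and 11.09, 10.64 and 10.77 in mdx IKKβf/f hearts, and differed by -0.29 ± 0.11. The groups did not overlap, and the other 4 Mef2c probe sets differed by -0.25, -0.37, -0.25 and -0.32. Without mdx IKKβf/f replicate 1, described above for its skeletal muscle and neutrophil markers, the brightest differed by -0.16, and all 5 were still lower. Mapk14, the p38 alpha kinase that can phosphorylate NFAT, differed by 0.16 ± 0.08 in its brightest probe set and by 0.21 ± 0.05 and 0.33 ± 0.08 in 1416704_at and 1451927_a_at, whose groups did not overlap. The other 3 probe sets of Mapk14 differed by -0.01, 0.08 and -0.01. Xpo1, the exporter that returns NFAT to the cytoplasm, had 10.43, 10.71, 10.44 and 10.42 in mdx HRTΔIKKβ hearts and 10.35, 10.32 and 10.37 in mdx IKKβf/f hearts, with no overlap and a difference of 0.16 ± 0.08. That difference was 0.09 without mdx HRTΔIKKβ replicate 2, and the other 2 Xpo1 probe sets differed by 0.22 ± 0.08, without overlap, and 0.06 ± 0.05. Csnk1d, a casein kinase, differed by 0.15 ± 0.06 without overlap, but 1 of its 5 probe sets was lower (-0.12). None of these passed adjustment (limma, adjusted p from 0.790 to 0.992).

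Of 14 measured genes linked to calcineurin and NFAT in heart and muscle, 6 had a higher and 8 a lower mean (median -0.03). Ptgs2, the inducible cyclooxygenase, had 6.67, 6.84, 6.04 and 6.25 in mdx HRTΔIKKβ hearts and 5.44, 5.28 and 6.29 in mdx IKKβf/f hearts, and differed by 0.78 ± 0.28. The groups overlapped through mdx IKKβf/f replicate 3, and the second Ptgs2 probe set differed by 0.16 ± 0.13. Both Ptgs2 probe sets lay on average below the median brightness of 6.74. Adssl1, the muscle adenylosuccinate synthase, differed by -0.15 ± 0.08. Nppa, the atrial natriuretic peptide, differed by 0.68 ± 0.36, with the lowest value (12.88) in mdx IKKβf/f replicate 2, where the atrial markers as a whole were lowest (-1.90), and by 0.24 without it. Tnni1, the slow skeletal troponin I, differed by -0.77 ± 0.42 and by -0.17 without mdx IKKβf/f replicate 1. Nppb and Xirp1, named after their values were seen, had the highest r with Rcan1 of the 50 pathway genes (0.87 and 0.95), although their groups overlapped. The list as a whole did not follow Rcan1. Within it, r was 0.81 for Ptgs2, 0.19 for Nppa, 0.11 for Myh7, -0.57 for Trpc1 and -0.89 for Adssl1. Nppb, the ventricular stress peptide, had 14.22, 14.51, 13.56 and 13.25 in mdx HRTΔIKKβ hearts and 13.71, 13.68 and 13.58 in mdx IKKβf/f hearts, so that the hearts with the most Rcan1 also had the most Nppb. Xirp1, an intercalated disc protein, had 11.19, 11.45, 10.85 and 10.63 in mdx HRTΔIKKβ hearts and 10.66, 10.58 and 10.87 in mdx IKKβf/f hearts.

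**Figure D5:**
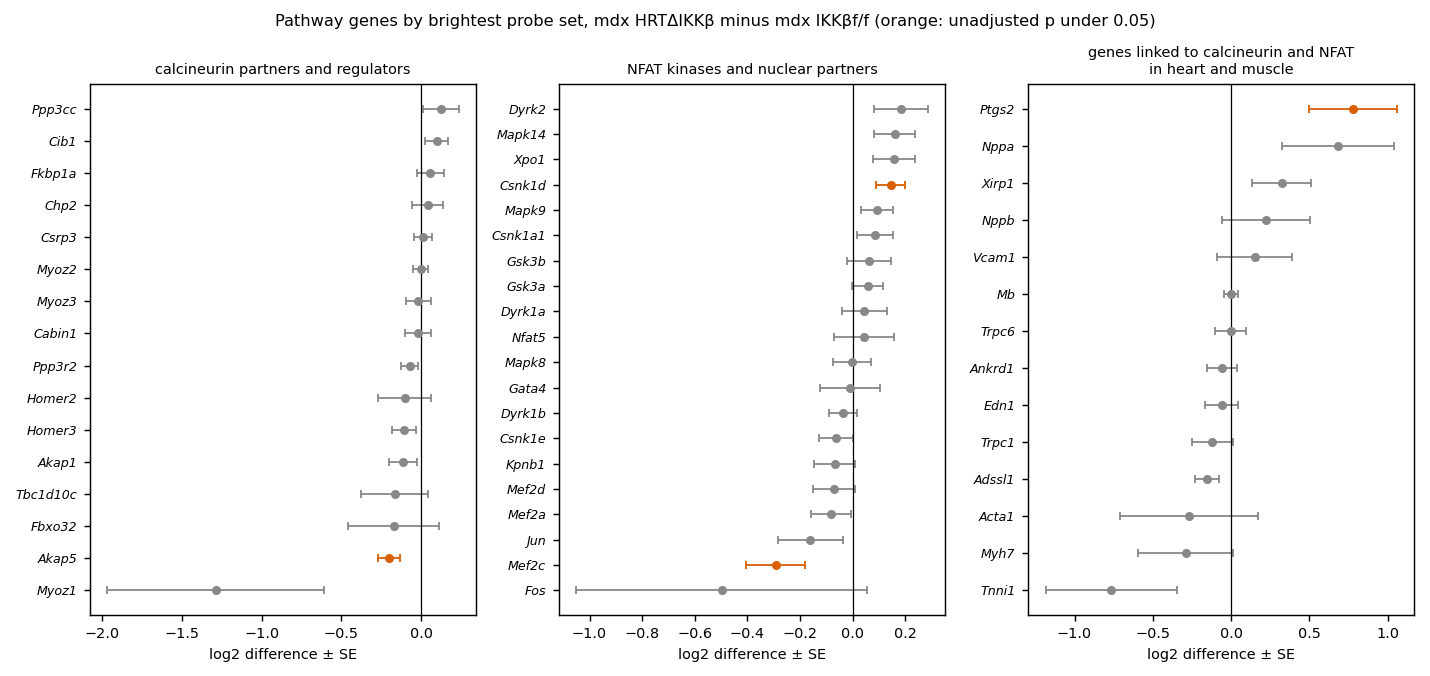
Difference in log2 RMA value ± SE, mdx HRTΔIKKβ minus mdx IKKβf/f, of the brightest probe set of 50 pathway genes in 3 lists, ordered by value. Orange marks the 4 genes at an unadjusted p of 0.05 (Csnk1d and Ptgs2 higher, Akap5 and Mef2c lower), and the horizontal scales differ between panels.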

How the data were processed

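Total RNA from 7 whole hearts was labelled with biotin and hybridized to 1 array each. The values deposited by the authors are log2 and were made by RMA (background correction, quantile normalization and a summary per probe set). RMA was run in Partek and, independently, in Affymetrix Expression Console, per the methods. Their versions, and which output was deposited, are not given in the sources used here. RMA compresses small and dim differences, quantile normalization removes global shifts, and its summary step left equal values in 2 or more hearts for 15 of the 33 member probe sets (48.7% of all).

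Groups were compared with limma 3.58.1 (lmFit, eBayes) in R 4.3.3 over all 45037 probe sets, two-sided, with Benjamini-Hochberg adjustment. Genes were named from the platform annotation (34945 probe sets with 1 symbol, 932 with several, 9160 with none), and a gene is its brightest probe set. Gene lists, members and tests were chosen with earlier results of these data known. The named genes were all members, up to 4 genes with the smallest unadjusted p in each pathway list, and the 5 genes most correlated with Rcan1. A marker score is the mean of centred log2 values. The code was tested on simulated data. Alternatives were scaling, a filter on dim probe sets, the variance model, array weights, the replicate block, probe set choice, the unpaired test that the methods name, and leaving out single hearts. The number of arrays limits the precision. The groups share replicate numbers 1 to 3, whose meaning the labels do not give. Correlations of deviations between hearts of the same number were -0.08, -0.38 and -0.04, and hearts were not paired in the main test. With so few hearts, these values cannot show whether hearts of the same number shared a litter or batch. Samples were biological replicates per the methods.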

Additional observations from a re-analysis of the deposited data

Results flagged for a closer look

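Among 33 member probe sets, 2 had 1 of the 4 mdx HRTΔIKKβ hearts far from the others, where chance marks about 5% of such groups. The Ppp3cb probe set 1427468_at was lowest in replicate 1, at 10.34 (10.3391), while the other 3 lay at 10.45, 10.46 and 10.45. Without that heart the Ppp3cb difference was -0.02, against -0.04 over all 7 hearts. The Nfatc2 probe set 1425990_a_at, which is dim, was lowest in replicate 3, at 4.51 (4.50949), while the other 3 lay at 4.72, 4.69 and 4.71. Without that heart the Nfatc2 difference was -0.19, against -0.24 over all 7 hearts.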

How the results depend on the processing

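No member probe set passed an adjusted p of 0.05 under any of the 8 alternative settings or with any heart left out. The adjusted p of the brightest Rcan1 probe set lay between 0.655 and 0.960. Over all probe sets, 1 passed without mdx HRTΔIKKβ replicate 1, and it was not a member.

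At an unadjusted p of 0.05, member probe sets higher numbered 0 to 3 and lower 0 to 1 with single hearts left out, member genes higher 0 to 1, pathway genes higher 0 to 3 and pathway genes lower 1 to 3. With probe sets above the median brightness (22 members kept), member probe sets lower were 0 and pathway genes were 1 higher and 1 lower. With array weights, member genes higher were 0, pathway genes higher were 1, Rcan1 was 0.48 and missed that p, and Rcan3 reversed to -0.0148. The hearts with the most Rcan1, mdx HRTΔIKKβ replicates 1 and 2, had the lowest weights (0.68 and 0.63). The other hearts had weights from 0.76 to 1.52. With the replicate block, pathway genes were 1 higher and 1 lower, and Rcan1 was 0.80, the value without mdx HRTΔIKKβ replicate 4, which has no partner. The labels do not say whether replicate numbers pair the hearts. With the mean of all probe sets of a gene, Ppp3cb reversed to 0.0458 and Rcan2 to 0.0378. With unmarked probe sets only, which leave none for Nfatc3, Rcan1 and Rcan2, member probe sets were 0 higher and 0 lower, member genes higher 0 and pathway genes higher 1. With the methods' t-test, member probe sets higher were 1, member genes higher 0, pathway genes 1 higher and 1 lower, and Rcan1, at 0.63, missed that threshold.

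Rcan1 stayed higher throughout and ranged from 0.45 to 0.80 with single hearts left out, and its unadjusted p missed 0.05 in 5 of 7 such runs. The exact permutation p was then 0.1 without an mdx HRTΔIKKβ heart and 0.133 without an mdx IKKβf/f heart. Each is the smallest that the remaining hearts can give. With single hearts left out, Rcan2 ranged from -0.0413 to 0.0219 (reversed without mdx HRTΔIKKβ replicate 3 and, at 0.0166, without mdx IKKβf/f replicate 3), Nfatc1 from -0.018 to 0.145 and Rcan3 from -0.0791 to 0.111 (both reversed without mdx IKKβf/f replicate 2).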
